A study of Mus musculus with 6 samples.

Results

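The 40 proliferation genes described here encode proteins that copy DNA in S phase (14 genes) or divide the cell in G2 and mitosis (26 genes, the G2/M class). They were taken by symbol from a list, with no threshold on their values, though the list was chosen with earlier results of these data known. All 40 were among the 24016 genes of the expression table and among the 11991 that were tested, which reached 10 reads in 3 or more of the libraries. Macrophages grown from bone marrow (C57BL/6N mice, female, 8 weeks old) with 20 ng/mL M-CSF, a growth factor that drives macrophage precursors to divide and mature, were plated on day 7, received a compound for 1 h and then 100 ng/mL LPS, a bacterial cell wall component, for 6 h. The hydroxyestrogen group held 3 libraries, of 2OHE2 (2-hydroxyestradiol), 4OHE1 (4-hydroxyestrone) and 2OHE1 (2-hydroxyestrone), which are catechol estrogens, that is estrogens with a second hydroxyl group beside the one on their aromatic ring. The control group held 3 libraries, of the ethanol vehicle (EtOH), estradiol (E2) and an estrogen labelled 16Epi. Each estrogen was at 1 µM, as its stock and dilution in the labels give it, all 6 cultures had LPS, and no culture without LPS was compared. With a single library for each compound, differences between compounds are part of the spread within a group. Nothing in the labels says that the libraries are from separate animals or cultures. The p-values then reflect only how these 6 samples spread, which may be technical.

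Dividing cells make these proteins in a fixed order. When growth signals release E2F transcription factors from the retinoblastoma protein, genes of the MCM helicase, the replication clamp and nucleotide supply are switched on and DNA is copied. Later a different set, bound by the MuvB core with B-MYB and FOXM1 or, in resting cells, by the DREAM complex, supplies cyclin B, the kinases and the spindle proteins of mitosis. M-CSF keeps macrophages of mouse marrow cycling in culture, and LPS is known to arrest such cells.

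Elements known from these 2 kinds of promoter occurred at different frequencies before the members' start sites, without separating the classes gene by gene, so 5 promoters are shown, 3 of G2/M genes and 2 of S-phase genes. Sequences are RefSeq's for GRCm38.p6, whose coordinates differ from the mm9 coordinates of the expression table. Each line holds 190 bases, 160 before the annotated start site and 30 from it on, read 5′ to 3′ on the gene's strand. Capitals mark matches on either strand to the CHR element that recruits MuvB (TTTGAA or TTCGAA), to the CCAAT box of the factor NF-Y (CCAAT) and to an E2F site (TTTGGCGC, TTTCGCGC, TTTCCCGC or TTTGCCGC). The E2F matches overlap each other in Mcm5 and in Mcm6, where a single run of capitals holds a pair of them.
Prc1 (chr7:80294291-80294480, plus strand, 1 of its 2 listed starts): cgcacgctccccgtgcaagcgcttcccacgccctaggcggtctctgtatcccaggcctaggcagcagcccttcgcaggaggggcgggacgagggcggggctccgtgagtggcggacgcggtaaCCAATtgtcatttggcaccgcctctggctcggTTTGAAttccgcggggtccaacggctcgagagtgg
Cdk1 (chr10:69352883-69353072, minus strand): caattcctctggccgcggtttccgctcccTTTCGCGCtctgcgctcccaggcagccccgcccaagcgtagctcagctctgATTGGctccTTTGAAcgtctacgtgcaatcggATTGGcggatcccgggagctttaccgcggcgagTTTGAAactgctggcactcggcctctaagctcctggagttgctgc
Top2a (chr11:99024160-99024349, minus strand): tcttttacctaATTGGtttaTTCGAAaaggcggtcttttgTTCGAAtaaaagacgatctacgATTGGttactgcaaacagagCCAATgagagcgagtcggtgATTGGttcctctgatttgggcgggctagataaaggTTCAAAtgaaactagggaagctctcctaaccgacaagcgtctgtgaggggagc
Mcm5 (chr8:75109349-75109538, plus strand): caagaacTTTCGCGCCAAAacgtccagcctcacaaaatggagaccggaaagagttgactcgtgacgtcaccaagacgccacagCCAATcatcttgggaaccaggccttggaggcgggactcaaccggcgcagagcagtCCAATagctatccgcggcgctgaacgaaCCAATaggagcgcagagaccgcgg
Mcm6 (chr1:128359676-128359865, minus strand): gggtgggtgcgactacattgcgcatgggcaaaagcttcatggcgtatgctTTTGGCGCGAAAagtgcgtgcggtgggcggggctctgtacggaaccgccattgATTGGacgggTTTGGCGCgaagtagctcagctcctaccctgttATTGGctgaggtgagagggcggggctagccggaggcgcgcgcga

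Over the full windows, from 250 bases before to 50 bases after each start, RefSeq's table held 34 of the 40 members; Aurkb, Ccna2, Gins2, Mcm4, Stmn1 and Tpx2 are named only. A CHR match lay in 82.6% of the 23 G2/M windows, in 23.1% of the 13 S-phase windows and in 19.2% of all 32851 windows. A CCAAT match lay in 91.3% of the G2/M windows, in 76.9% of the S-phase windows and in 37.4% of all windows. The E2F letters were found in 4.35% of the G2/M windows, in 38.5% of the S-phase windows and in 2.26% of all windows. The single G2/M window with E2F letters was that of Cdk1, shown above. These matches are descriptions of letters and not measured binding, and a window without a match says nothing about the factor.

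All 40 genes were detected in every library. Their mean level over the 6 libraries ran from 0.517 RPKM (reads scaled for transcript length and library depth) for Cdc6, the loader of the MCM helicase, to 172 RPKM for Pcna, the sliding clamp of DNA polymerase, with a median of 16.5 RPKM against 7.83 RPKM over all genes tested. Ube2c, the ubiquitin-conjugating enzyme of the anaphase-promoting complex, led the G2/M class with 129 RPKM. A member had between 16 and 5084 reads in a library, with a median over members of 755; Cdc6 was the only member under 100 on average. Reads within genes totalled 16424057 to 17326353 in hydroxyestrogen libraries and 14734225 to 16059673 in control libraries. On the first principal component of all genes tested, which held 30.6% of the variance, the 4OHE1 library stood apart at 50.5, with the other 5 libraries between -19.4 and -1.51. Of the 13 macrophage markers 12 were at 1 RPKM or more in every library. Their summed level was 8984 to 10276 RPKM in hydroxyestrogen libraries and 9816 to 10286 RPKM in controls. Of the other marker lists, the 10 measured markers of granulocytes and their precursors summed to 29.8 to 37.1 RPKM with hydroxyestrogens and 33.5 to 47.0 RPKM in controls, and the 5 stem and progenitor markers to 17.2 to 23.4 RPKM with hydroxyestrogens and 14.4 to 22.5 RPKM in controls. The 7 stromal and endothelial markers summed to 12.4 to 22.1 RPKM with hydroxyestrogens and 19.9 to 22.5 RPKM in controls. Erythroid, dendritic cell and lymphocyte markers summed to at most 0.254, 2.63 and 0.181 RPKM with hydroxyestrogens and at most 0.184, 3.11 and 0.309 RPKM in controls, with Hbb-b1, Hba-a1, Klf1, Cd209a, Cd3e, Cd79a, Ms4a1 and Cd8a, and of the granulocyte list Ctsg, among the genes at 0. The part of these other cells in the results below was not tested.

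As a group mean, most mitotic genes lay lower with hydroxyestrogens than in controls, by small amounts, and no member passed the test alone. The shift lay in 4OHE1 and 2OHE1, where the mean log2 deviation of the G2/M genes from controls was -0.34 and -0.28. In 2OHE2 it was -0.04, much as in EtOH (-0.04) and E2 (-0.05), with 16Epi at 0.09. Over all genes tested that mean was -0.09 in 4OHE1, -0.04 in 2OHE1 and 0.03 in 2OHE2. The median log2 difference, hydroxyestrogens minus controls on the log2(RPKM + 0.1) scale, was -0.27 over the 26 G2/M genes and -0.03 over the 14 S-phase genes, against -0.02 over all genes tested. Below 0 were 23 of 26 G2/M genes and 9 of 14 S-phase genes, 32 of 40 in all, against 54.3% of all genes tested. With limma and Benjamini-Hochberg adjustment over all genes tested, 0 of 40 members passed an adjusted p of 0.05 in either direction, against 1.88% of all genes (0.6% lower and 1.28% higher). At an unadjusted p under 0.05, 11 members were lower, against 6.91% of all genes, and 3 were higher, against 6.63%. The 3 hydroxyestrogen libraries lay below all 3 controls for 9 members (10.8% of all genes) and above them for 3 members (9.15%). In RNA from whole cultures, fewer dividing cells and less of these RNAs per cell cannot be told apart.

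**Figure D1:**
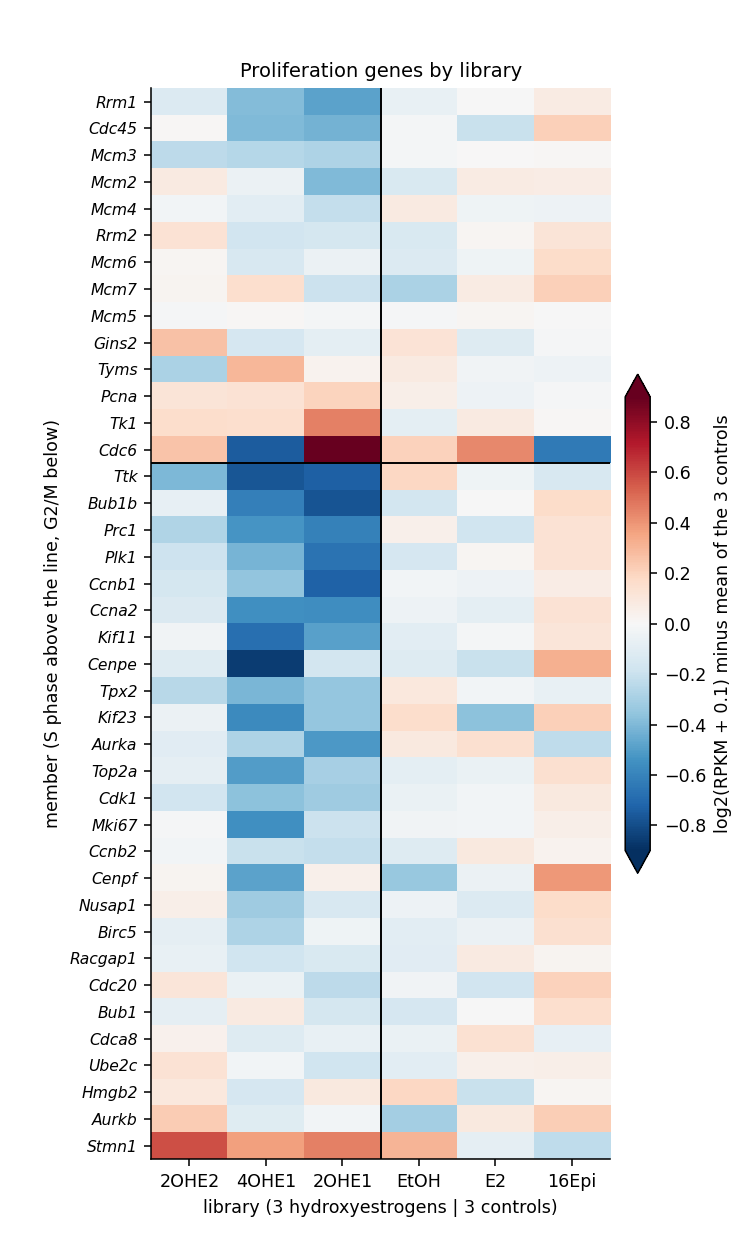
Each cell is a gene's log2(RPKM + 0.1) in 1 library minus its mean over the 3 controls, with hydroxyestrogen libraries left of the line and controls right of it; colours end at 0.9 in either direction, which only Cdc6 in 2OHE1 exceeds. Blue cells fill much of the G2/M block under 4OHE1 and 2OHE1, and far less of it under 2OHE2.

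All 3 cytokinesis genes and all 4 genes of the cyclins and their kinase had log2 differences below 0. Prc1, which bundles the microtubules of the central spindle (mm9 chr7:87439337-87461145), had 18.1, 15.0 and 14.2 RPKM in 2OHE2, 4OHE1 and 2OHE1, against 22.5, 19.2 and 23.9 RPKM in EtOH, E2 and 16Epi. The groups did not overlap, and the nearest pair of values was 2OHE2 and E2. Its log2 difference was -0.47 (SE 0.13, limma adjusted p = 0.135), the smallest p among the members. Kif23, the motor that works with Prc1 at the midzone, and Racgap1, its partner in the centralspindlin complex, had log2 differences of -0.33 and -0.13 with overlapping groups.

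Cdk1, the kinase that drives entry into mitosis (mm9 chr10:68799383-68815660), had 34.4, 30.1 and 31.1 RPKM in 2OHE2, 4OHE1 and 2OHE1, against 37.2, 38.1 and 41.2 RPKM in EtOH, E2 and 16Epi. Its partner Ccna2, cyclin A2, which also acts in S phase, had 24.9, 18.6 and 18.5 RPKM in the hydroxyestrogen libraries, against 26.4, 25.7 and 29.9 RPKM in the controls in the same order. Ccnb1, cyclin B1, had 17.1, 14.9 and 11.5 RPKM, against 18.8, 18.5 and 20.0 RPKM. For all 3 genes every hydroxyestrogen library lay below every control, and 2OHE2 was the highest of the 3 hydroxyestrogens. Their log2 differences were -0.29, -0.41 and -0.42 (limma adjusted p = 0.190, 0.199 and 0.249). Ccnb2, cyclin B2, had a log2 difference of -0.15 with overlapping groups. Ccna2 shares 863 bases of its span with Exosc9 on the opposite strand, which averaged 26.4 RPKM. Whether reads were counted by strand is not given in the sources, so reads of this pair cannot be told apart.

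**Figure D2:**
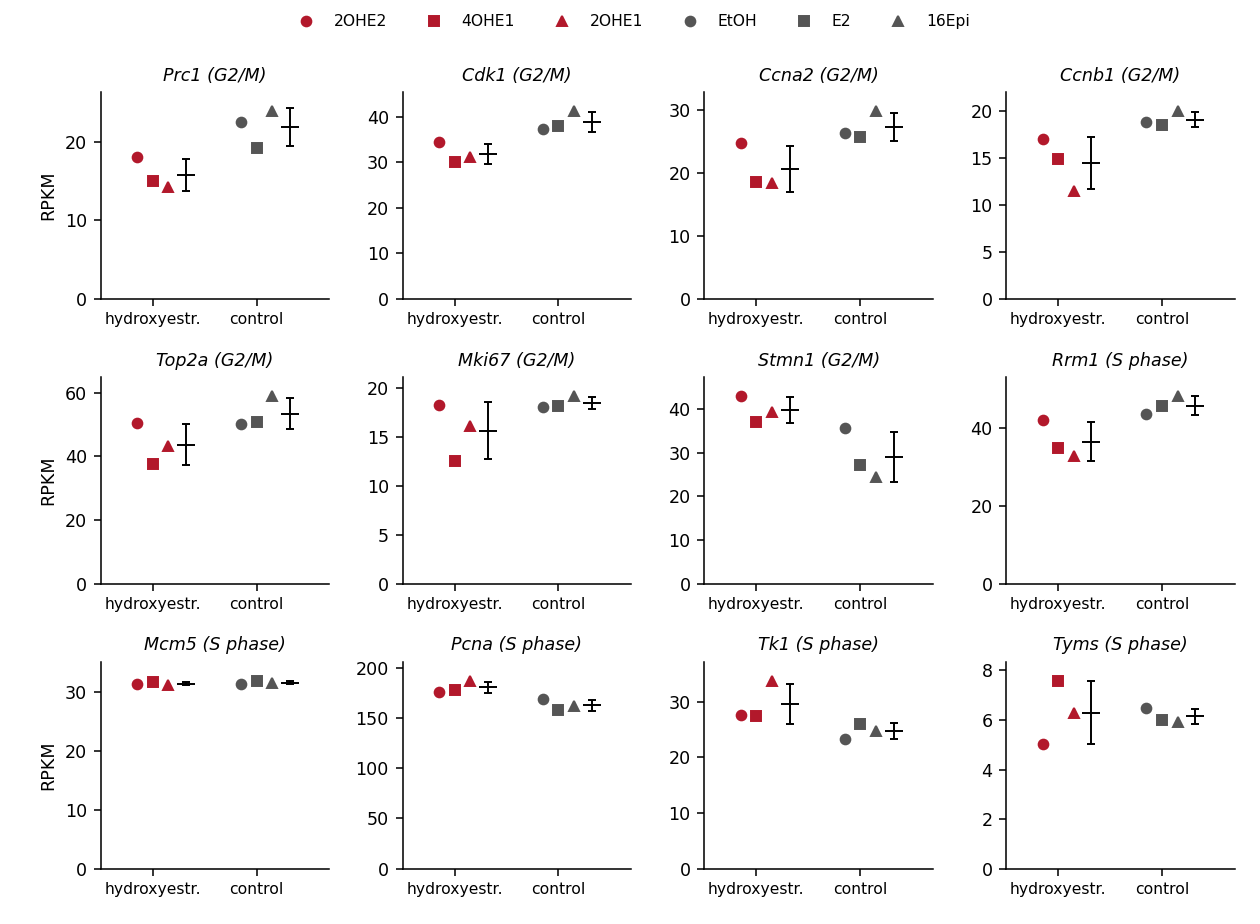
Levels in RPKM of 12 members (vertical axes, from 0) in the 3 hydroxyestrogen libraries (red) and the 3 controls (grey), with mean and SD of each group in black. Prc1, Cdk1, Ccna2, Ccnb1 and Rrm1 are lower in every hydroxyestrogen library than in any control, Stmn1, Pcna and Tk1 are higher, and Mcm5 is level.

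Among the mitotic kinases and checkpoint proteins 7 of 8 members had log2 differences below 0. Ttk, the Mps1 kinase of the spindle checkpoint, had 2.37, 1.81 and 1.86 RPKM in 2OHE2, 4OHE1 and 2OHE1, against 3.61, 3.07 and 2.86 RPKM in EtOH, E2 and 16Epi. The groups did not overlap, and the log2 difference of -0.64 (95% interval -1.14 to -0.14, limma adjusted p = 0.249) was the lowest of all members, on 93 to 178 reads a library. Bub1b, the checkpoint protein BubR1, had 7.77, 5.31 and 4.74 RPKM in the hydroxyestrogen libraries, against 7.28, 8.17 and 9.21 RPKM in the controls. Its 2OHE2 value lay within the controls, the other 2 below them, and the log2 difference was -0.49 (limma adjusted p = 0.335). Plk1, the Polo kinase, had a log2 difference of -0.42 without overlap, while Aurka, the spindle pole kinase, Birc5 (survivin) and Cdca8 (borealin) lay at -0.30, -0.13 and -0.05 with overlap. Bub1, a kinase at the kinetochore, lay at -0.05. Aurkb, the kinase that works in 1 complex with survivin and borealin, had 17.1, 13.5 and 14.3 RPKM with hydroxyestrogens, against 11.8, 15.5 and 17.0 RPKM in controls. Those groups overlapped throughout, and the log2 difference was 0.03, which turned to -0.12 without the EtOH library and to -0.07 without the 2OHE2 library.

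Of the 6 kinetochore and spindle genes 5 had log2 differences below 0. Tpx2, which nucleates spindle microtubules and activates Aurka, had 12.5, 11.2 and 11.6 RPKM in 2OHE2, 4OHE1 and 2OHE1, against 15.9, 14.6 and 14.2 RPKM in EtOH, E2 and 16Epi. Its log2 difference was -0.33 without overlap (limma adjusted p = 0.226). The motors Kif11 and Cenpe lay at -0.40 and -0.38 and the spindle proteins Nusap1 and Cenpf at -0.14 and -0.14, all with overlap. Stmn1, stathmin, which destabilizes microtubules and is also made outside division (mm9 chr4:134024235-134029758), went the other way. It had 43.0, 37.1 and 39.3 RPKM with 2OHE2, 4OHE1 and 2OHE1, against 35.6, 27.2 and 24.5 RPKM in EtOH, E2 and 16Epi. Every hydroxyestrogen library lay above every control, and EtOH was the control nearest to them. The log2 difference was 0.47 (SE 0.14, limma adjusted p = 0.160). Without the EtOH library it was 0.62, with an adjusted p of 0.0452.

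Of the 3 genes of chromosome structure, 2 lay below every control in 4OHE1 and in 2OHE1. Top2a, the topoisomerase that untangles sister chromatids, had 50.4, 37.5 and 43.2 RPKM in 2OHE2, 4OHE1 and 2OHE1, against 50.1, 50.9 and 58.9 RPKM in EtOH, E2 and 16Epi. Mki67, whose protein coats mitotic chromosomes and is the usual stain for dividing cells, had 18.3, 12.6 and 16.1 RPKM, against 18.1, 18.2 and 19.2 RPKM. For both genes 4OHE1 was the lowest library and 2OHE2 lay among the controls, and the log2 differences were -0.29 and -0.25 (limma adjusted p = 0.311 and 0.486). Hmgb2, a chromatin protein, lay at 0.01, and Ube2c and Cdc20, the activator of the anaphase-promoting complex, at -0.03 and -0.06, all with overlap. The span of Cdc20 shares 52 bases with Elovl1 on the opposite strand, which averaged 82.9 RPKM, and those of Nusap1, Gins2 and Tk1 share 208, 118 and 96 bases with Oip5, Gse1 and Afmid.

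The S-phase genes held no common direction. All 6 subunits of the MCM helicase, which unwinds DNA at the fork, had log2 differences below 0, from -0.01 to -0.26, and for 4 of them (Mcm2, Mcm5, Mcm6 and Mcm7) the sign turned in at least 1 alternative setting. Mcm5 (mm9 chr8:77633427-77652338) had 31.3, 31.7 and 31.1 RPKM in 2OHE2, 4OHE1 and 2OHE1, against 31.3, 31.8 and 31.4 RPKM in EtOH, E2 and 16Epi. The 6 values overlapped within 1 RPKM, and the log2 difference was -0.01 (95% interval -0.18 to 0.17). Mcm3 was the only subunit without overlap, at -0.26 (limma adjusted p = 0.236), and Mcm2, Mcm4, Mcm6 and Mcm7 lay at -0.12, -0.11, -0.06 and -0.01.

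Nucleotide supply split within itself. Rrm1, the large subunit of ribonucleotide reductase (mm9 chr7:109590209-109618285), had 42.0, 34.8 and 32.6 RPKM in 2OHE2, 4OHE1 and 2OHE1, against 43.5, 45.5 and 48.1 RPKM in EtOH, E2 and 16Epi. The groups did not overlap, with 2OHE2 close to EtOH, and the log2 difference of -0.33 was the lowest of the S-phase class (SE 0.11, limma adjusted p = 0.195). Rrm2, the small subunit of the same enzyme, had 29.2, 23.6 and 23.9 RPKM with hydroxyestrogens, against 24.3, 27.0 and 28.9 RPKM in controls. Its groups overlapped, with 2OHE2 the highest library of all 6, and its log2 difference was -0.07 (95% interval -0.32 to 0.19). Tk1, the thymidine kinase of the salvage route, had 27.6, 27.5 and 33.8 RPKM with 2OHE2, 4OHE1 and 2OHE1, against 23.2, 26.1 and 24.8 RPKM in EtOH, E2 and 16Epi. It was higher in every hydroxyestrogen library, by 0.25 on the log2 scale (limma adjusted p = 0.346). Tyms, thymidylate synthase, had 5.03, 7.58 and 6.26 RPKM, against 6.50, 6.00 and 5.94 RPKM. The lowest and the highest Tyms value were both in hydroxyestrogen libraries, and the log2 difference of 0.02 turned to -0.13 without 4OHE1. The transcript listed for Tyms is a non-coding RefSeq record. Tyms also has a pseudogene in the table, so its reads may be split between copies.

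Pcna, the clamp, had 176, 178 and 187 RPKM in 2OHE2, 4OHE1 and 2OHE1, against 169, 158 and 162 RPKM in EtOH, E2 and 16Epi. All 3 hydroxyestrogen libraries were above the controls, by 0.15 on the log2 scale (SE 0.06, limma adjusted p = 0.341). Of the proteins that load and start the helicase, Cdc45 had 11.5, 8.64 and 8.49 RPKM with hydroxyestrogens, against 11.3, 9.94 and 13.3 RPKM in controls. Its groups overlapped through 2OHE2, at a log2 difference of -0.27 (limma adjusted p = 0.527). Cdc6 had 0.481, 0.190 and 1.20 RPKM in 2OHE2, 4OHE1 and 2OHE1, against 0.462, 0.558 and 0.213 RPKM in EtOH, E2 and 16Epi, on 16 to 100 reads a library. Its highest value was in 2OHE1 and its lowest in 4OHE1, and the log2 difference of 0.31 (95% interval -0.99 to 1.60) turned to -0.25 without 2OHE1 and to -0.01 without 16Epi. Gins2, a subunit of the active helicase, lay at 0.01 with overlap.

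**Figure D3:**
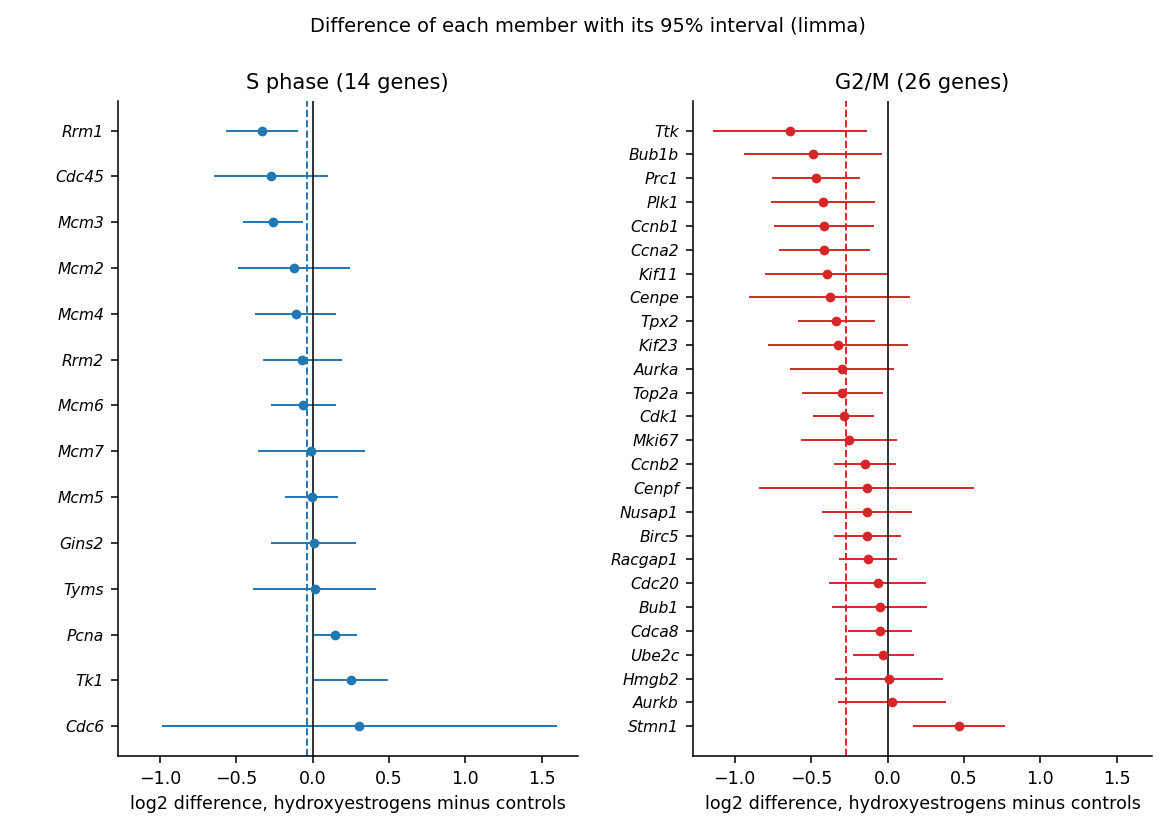
Log2 difference, hydroxyestrogens minus controls on the log2(RPKM + 0.1) scale, for each S-phase gene (left) and G2/M gene (right), with limma's 95% interval; the dashed line is the class median. The S-phase median is -0.03 and the G2/M median -0.27, and Stmn1 stands apart on the right of its class.

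Set side by side, the classes lay apart at the median, where the G2/M genes were -17.0% from controls and the S-phase genes -2.33%. Groups did not overlap for 7 G2/M genes on the lower side and 1 on the higher side, and for 2 and 2 S-phase genes. Over all genes tested these shares were 10.8% and 9.15%. At an unadjusted p under 0.05, 9 G2/M genes were lower and 1 higher, and 2 S-phase genes were lower and 2 higher. Of all genes tested, 6.91% were lower and 6.63% higher at that p. Without Ccna2, Hmgb2 and Stmn1, which also act outside mitosis, the G2/M median was -0.29. Those 3 genes lay at -0.41, 0.01 and 0.47, so leaving them out tends to lower the median. The median of all 26 G2/M genes was -0.13 without the 4OHE1 library and -0.36 without the 2OHE2 library. The S-phase median was -0.11 without 2OHE2, -0.10 without EtOH and -0.01 without 16Epi or 2OHE1. No p is given for the classes, whose genes share their libraries.

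**Figure D4:**
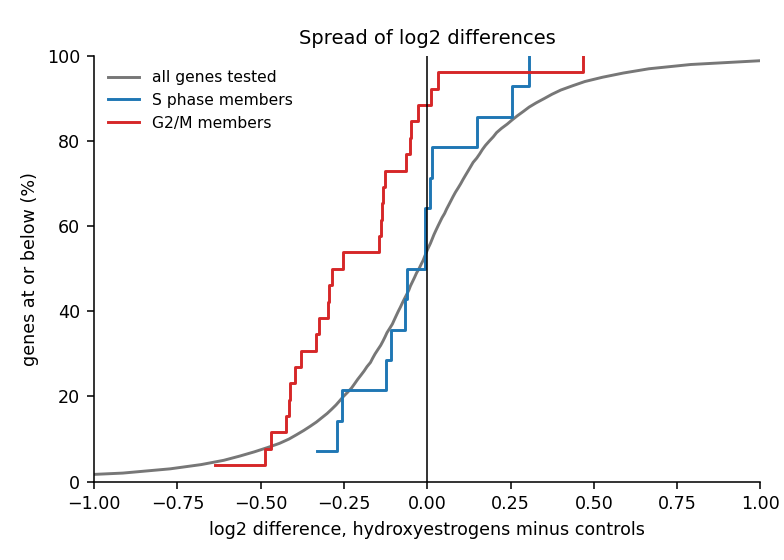
Share of genes (%) at or below each log2 difference, hydroxyestrogens minus controls, for the 26 G2/M members (red), the 14 S-phase members (blue) and all 11991 genes tested (grey). The G2/M curve runs left of the others over most of its height, with 23 of 26 genes below 0, and the S-phase curve runs close to all genes.

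By library, the G2/M genes lay lowest in 4OHE1 and 2OHE1. The mean log2 deviation of the 26 G2/M genes from their control means was -0.04 in 2OHE2, -0.34 in 4OHE1 and -0.28 in 2OHE1, against -0.04 in EtOH, -0.05 in E2 and 0.09 in 16Epi. That of the 14 S-phase genes was 0.03, -0.12 and -0.02 in the same hydroxyestrogens, against -0.02, 0.02 and 0.01 in the controls. That of all genes tested was 0.03, -0.09 and -0.04, against -0.01, 0.004 and 0.005, in the same order. The S-phase mean thus exceeded the G2/M mean by 0.07 in 2OHE2, 0.22 in 4OHE1 and 0.27 in 2OHE1, against 0.02 in EtOH, 0.06 in E2 and -0.08 in 16Epi. All 3 hydroxyestrogens lay above all controls on this measure, with 2OHE2 close to E2. The value of 2OHE1 rested in part on Cdc6, the member with fewest reads: without it, in a check added after the data were seen, the excess was 0.05 in 2OHE2, 0.27 in 4OHE1 and 0.16 in 2OHE1, against -0.0010 in EtOH, 0.03 in E2 and -0.03 in 16Epi. Between class medians it was 0.09, 0.24 and 0.10 in the hydroxyestrogens, against 0.05, 0.03 and -0.11 in the controls. Of the 26 G2/M genes 13 were lowest in 4OHE1 and 10 in 2OHE1, while 16 were highest in 16Epi. Over all genes tested, 30.7% were lowest in 4OHE1, 18.1% in 2OHE1, and 18.5% were highest in 16Epi.

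Each hydroxyestrogen was also set against the 3 controls alone, with the spread of its single library taken from the controls. These 3 comparisons share their controls. The G2/M medians were -0.07 for 2OHE2, -0.36 for 4OHE1 and -0.23 for 2OHE1, the S-phase medians 0.02, -0.12 and -0.12, and the medians of all genes tested 0.04, -0.06 and -0.02. No member passed limma's adjusted p of 0.05 for any compound, against 0.609%, 3.69% and 0.542% of all genes. At an unadjusted p under 0.05, 0 members were lower with 2OHE2 (6.35% of all genes), 14 with 4OHE1 (15.7%) and 13 with 2OHE1 (8.66%), and 1, 0 and 3 were higher (7.4%, 8.23% and 5.58% of all genes). Of the G2/M genes 7, 20 and 18 lay below all 3 controls, against 27%, 40.9% and 33.7% of all genes, and of the S-phase genes 3, 8 and 7.

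Named by their smallest p, the genes for 4OHE1 were Mki67, Ccna2 and Top2a, with log2 differences of -0.55, -0.55 and -0.50 (limma adjusted p = 0.0611, 0.0700 and 0.0711). For 2OHE1 the first was Ccnb1, at -0.73 (limma adjusted p = 0.0714), and the second Rrm1, at -0.48 (adjusted p = 0.116). For 2OHE2 it was Stmn1, at 0.58 (adjusted p = 0.287). Without EtOH among the controls, Top2a lay at -0.55 for 4OHE1 and Stmn1 at 0.74 for 2OHE2.

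The count depended on the test. With limma-voom on the recovered reads, 10 members were lower with 4OHE1 (8.96% of all genes), namely Bub1b, Top2a, Mki67, Cdk1, Cenpe, Prc1, Tpx2, Ccna2, Rrm1 and Kif11, 5 were lower with 2OHE1 (1.15%), namely Bub1b, Prc1, Ccnb1, Ccna2 and Rrm1, and 0 were lower or higher with 2OHE2 (1.39% and 2.47% of all genes). For the 3 hydroxyestrogens together, that test called Prc1 (adjusted p = 0.0368), against 1.66% of all genes called lower. In the authors' deposited table, whose fold changes are positive where controls are higher, 3 members passed an adjusted p of 0.05, all lower with hydroxyestrogens, against 2.11% of all genes. The same 3 genes passed in limma when only genes with at least 1000 reads on average were kept, against 4.69% of all genes kept. The authors' deposited table gives adjusted p-values of 0.0104 for Prc1, 0.0227 for Rrm1 and 0.0392 for Ccna2.

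With limma on the log2 values of the authors' deposited table, a scale on which differences were smaller, Prc1 and Ccna2 were lower (-0.27 and -0.24) and Stmn1 higher (0.24) for the 3 hydroxyestrogens together, against 1.77% and 2.36% of all genes. By compound, 8 members were lower with 4OHE1 (7.38% of all genes), 6 lower and 1 higher with 2OHE1 (1.69% and 2.93%), and Stmn1 alone was higher with 2OHE2 (2.43%). The 8 were Bub1b, Top2a, Mki67, Cenpe, Prc1, Ccna2, Rrm1 and Kif11. The 6 were Bub1b, Plk1, Prc1, Ccnb1, Ccna2 and Rrm1, and the 1 was Cdc6.

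**Figure D5:**
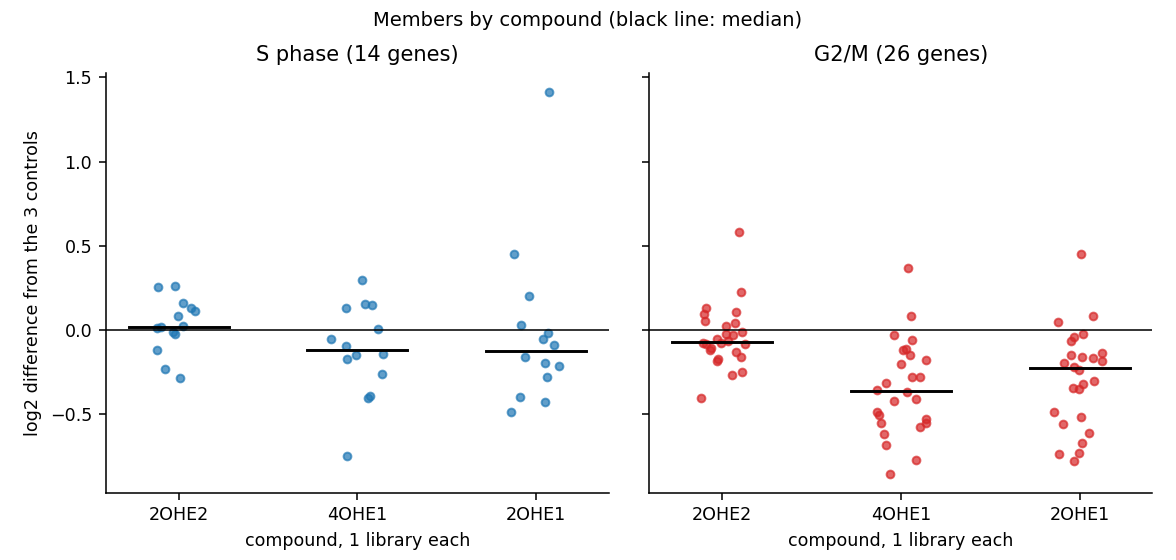
Log2 difference of each member from the 3 controls on the log2(RPKM + 0.1) scale (points) for 2OHE2, 4OHE1 and 2OHE1, for the S-phase class (left) and the G2/M class (right), with the class median as a black line. The G2/M medians are -0.07, -0.36 and -0.23 and the S-phase medians 0.02, -0.12 and -0.12; the point at 1.41 is Cdc6.

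The compounds form 3 pairs at a matched dose and time. 2OHE2 and 2OHE1 differ in the oxygen of their five-membered ring, a hydroxyl in 2OHE2 and a ketone in 2OHE1. 4OHE1 and 2OHE1 differ in which neighbouring carbon of the aromatic ring carries the added hydroxyl, and 2OHE2 and 4OHE1 differ in both. No member differed between any pair at an adjusted p of 0.05 in limma, adjusted over all genes within a pair or over the 3 pairs together, against 0.0417%, 0.0417% and 0.0751% of all genes within a pair. The G2/M median of 2OHE2 minus 2OHE1 was 0.21 and its S-phase median 0.13, those of 4OHE1 minus 2OHE1 were -0.05 and 0.02, and those of 2OHE2 minus 4OHE1 were 0.24 and 0.10.

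Single genes bounded these differences. Ccnb1 was higher in 2OHE2 than in 2OHE1 by 0.57 on the log2 scale (95% interval 0.21 to 0.93, limma adjusted p over the 3 pairs = 0.249). Mki67 in 2OHE2 exceeded its value in 4OHE1 by 0.54 (95% interval 0.19 to 0.89, adjusted p over the 3 pairs = 0.254), and limma-voom called this difference within the pair (adjusted p = 0.0201), against 1.57% of all genes higher. On the log2 values of the authors' deposited table Mki67 and Cenpe were higher in 2OHE2 than in 4OHE1 (1.55% of all genes), and Cdc6 and Cenpe lower in 4OHE1 than in 2OHE1 (2.02%). Between 4OHE1 and 2OHE1, Cdk1 differed by -0.05 (95% interval -0.35 to 0.26) and Prc1 by 0.08 (95% interval -0.36 to 0.52). Mcm5 differed by 0.02 (95% interval -0.25 to 0.30) in that pair and by 0.01 (95% interval -0.27 to 0.29) between 2OHE2 and 2OHE1. A p that misses the threshold does not show that the compounds act alike, and the intervals leave room for differences of these sizes with 1 library a compound.

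E2 and 16Epi, which are in the control group, were each set against EtOH, 1 library against 1. The spread was taken from the 3 hydroxyestrogen libraries, which are different compounds, and the median SE of a member was 0.26 on the log2 scale, so the lack of calls says little. E2 against EtOH gave a median log2 difference of 0.03 for G2/M genes and 0.05 for S-phase genes, and 16Epi against EtOH gave 0.15 and 0.06. With limma 0 members passed an adjusted p of 0.05 in either comparison, against 0.00834% and 0.0167% of all genes. At an unadjusted p under 0.05, 0 members passed for E2 (0.734% of all genes higher and 0.617% lower) and 1 for 16Epi, on the lower side (0.892% of all genes lower and 0.617% higher). Limma-voom called 0 members in both, and 0% of all genes.

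Further genes of the same processes were followed on lists outside the 40, also chosen with earlier results of these data known. Of 71 other mitotic genes 63 had log2 differences below 0, with a median of -0.27, and 1 rose and 1 fell past limma's adjusted p of 0.05, against 1.28% and 0.6% of all genes. Zwint, a kinetochore protein that links the outer kinetochore to the checkpoint, had 69.6, 76.6 and 63.2 RPKM in 2OHE2, 4OHE1 and 2OHE1, against 48.9, 44.9 and 48.3 RPKM in EtOH, E2 and 16Epi. It was higher in all 3 hydroxyestrogen libraries, and rose by 0.56 on the log2 scale (SE 0.09, limma adjusted p = 0.0137), although the call was lost without E2 (adjusted p = 0.0805) or 16Epi (adjusted p = 0.0710). Pbk, a kinase active in mitosis, had 11.5, 10.1 and 12.1 RPKM with hydroxyestrogens, against 17.9, 16.1 and 19.2 RPKM in controls. It fell by 0.65 on the log2 scale (SE 0.12, limma adjusted p = 0.0289), with no overlap. Its call was lost without EtOH, E2, 16Epi, 2OHE2 or 4OHE1 (adjusted p = 0.118, 0.0723, 0.174, 0.0589 and 0.0649). Both calls were also lost with no filter on low values (adjusted p = 0.0517 for Zwint and 0.0657 for Pbk) and with no variance trend (0.159 and 0.141).

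With 4OHE1 alone 1 of the 71 mitotic genes rose and 5 fell, against 1.41% and 2.28% of all genes. Zwint was higher by 0.69, and Pbk, Kif20a, Sgol1, Ckap2 and Troap were lower, at -0.80, -0.73, -1.75, -1.52 and -1.05 on the log2 scale (limma adjusted p from 0.0343 to 0.0446). Kif20a is a motor of cytokinesis, and Sgol1 (shugoshin) guards the cohesion of sister chromatids. The sizes depended on the setting, among them the authors' log2 scale, and so did the calls. Of 11 settings, Kif20a was called in 6, Troap in 7, Pbk, Sgol1 and Ckap2 in 8 and Zwint in 9. The losses given below are thus not all of those of Kif20a and Troap. Over all settings Sgol1 ran from -1.88 to -0.26, Ckap2 from -1.65 to -0.33 and Troap from -1.07 to -0.22. Pbk ran from -0.86 to -0.29, Kif20a from -0.77 to -0.36 and Zwint from 0.52 to 0.76. Without E2 all 6 calls were lost (adjusted p from 0.0778 to 0.119), and without 16Epi the 5 lower ones (from 0.0858 to 0.101). With no filter on low values all 6 were lost as well (adjusted p from 0.0656 to 0.162). With 2OHE2 and 2OHE1 alone none of the 71 passed, and 2 and 20 were lower at an unadjusted p under 0.05, against 6.35% and 8.66% of all genes.

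Of 54 other replication genes none passed, with a median of -0.12, and 8 were lower and 0 higher at an unadjusted p under 0.05, against 6.91% and 6.63% of all genes. The smallest p were those of Fen1, the flap nuclease that trims Okazaki fragments, at -0.44 (limma adjusted p = 0.112), and Gins4, a helicase subunit, at -0.46 (adjusted p = 0.185). Of 26 regulators of proliferation genes none passed either, with a median of -0.22. E2f8, a repressor of the E2F family, lay at -0.56 (limma adjusted p = 0.204) and Tfdp1, the partner of E2F factors, at -0.28 (adjusted p = 0.255). In these lists too the median was nearest to 0 with 2OHE2, at -0.06 for mitotic genes, 0.06 for replication genes and 0.03 for regulators, against -0.43, -0.22 and -0.32 with 4OHE1 and -0.31, -0.21 and -0.20 with 2OHE1.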

How the data were processed

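The 6 libraries of mouse macrophage mRNA were sequenced on an Illumina instrument, per the labels' protocols, and STAR, HOMER, DESeq2, edgeR and mm9 are named in the submitters' processing notes; versions are not given in the sources used here. The authors deposited RPKM values per gene, per the file headers, and a table with the authors' log2 expression values, fold changes and p-values, matched here by symbol. Groups follow titles and column headers; the treatment field, which names them the other way round, was set aside, since ethanol is the vehicle. RPKM values were turned into whole reads (100% of low values within 0.1 of a whole number) for filters and depth. No counts are in the files, so limma 3.58.1 with a variance trend on log2(RPKM + 0.1) replaced the count test planned. It was two-sided, p-values were adjusted by Benjamini and Hochberg's method and called under 0.05, on 4 residual degrees of freedom (2 for single compounds). An exact permutation test of 3 against 3 cannot go below 0.1. Members and lists were chosen with earlier results of these data known. Values in every library are given for Mki67, Top2a, Pcna, Mcm5, Ccnb1, Cdk1, Rrm2 and Tyms, the 2 extremes of each class in either direction and the 6 members of smallest p without overlap; those of other lists are the genes past the threshold or the 2 of smallest p. The value of 1 marker gene is not reported here. Only the fit of hydroxyestrogens against controls was tested on simulated data, with changes larger than any member showed in that comparison. Fits by compound, by pair and within the controls were not simulated.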

Additional observations from a re-analysis of the deposited data

How the results depend on the processing

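The 0 members called for the hydroxyestrogens together became 1 with limma-voom and 3 each with the authors' log2 values, with genes of at least 1000 reads on average and in the authors' deposited table, and 0 to 1 when 1 library was left out. The 11 members lower at an unadjusted p under 0.05 became 6 with at least 1000 reads, where 14 of the 40 members were tested and the same number of these 14 had been lower before, and 7 to 15 when 1 library was left out, with 7 without 16Epi or without 2OHE1. The 3 higher became 1 with limma-voom, with at least 1000 reads and without the variance trend. Of the 14 members with at least 1000 reads, 1 had been higher before. When 1 library was left out 1 to 3 were higher, with 1 without E2, 16Epi or 2OHE1. Shares of all genes at an unadjusted p were computed for the main setting only. The counts at that p in this section, with the replicate block included, therefore have no background beside them. Nor is a share of all genes given beside the counts of members called with 1 library left out. For single compounds, limma-voom called 10 members with 4OHE1 and 5 with 2OHE1, and the authors' log2 values 1 with 2OHE2, 8 with 4OHE1 and 7 with 2OHE1. Leaving out 1 library gave 0 to 1 with 2OHE2 and 0 to 1 with 4OHE1, the 1 in each case without EtOH. Between 4OHE1 and 2OHE1 the authors' log2 values called 2, and between 2OHE2 and 4OHE1 limma-voom called 1 and the authors' log2 values 2. Signs turned in at least 1 alternative for 14 of the 40 members, 7 in each class. Among those with values in every library these were Aurkb (-0.12 to 0.14 over libraries left out, -0.07 without 2OHE2), Cdc6 (-0.25 to 0.83, -0.01 without 16Epi), Mcm5 (0.0075 with the authors' log2 values, 0.012 with median-ratio scaling, and -0.014 to 0.00033 over libraries left out) and Tyms (-0.13 to 0.16, with -0.0013 without E2 and -0.0087 without 16Epi). The causes were not tested. The median log2 difference of the G2/M class was below 0 in every alternative, from -0.36 to -0.13 when 1 library was left out, and that of the S-phase class from -0.11 to -0.01. All genes called, 225, were 433 with limma-voom, 346 with at least 1000 reads, 94 with no filter and 12 without the variance trend. Same-numbered libraries of the groups had correlations of -0.04, 0.07 and 0.04 in their deviations. Among the controls, 4OHE1 and 2OHE1 correlated best with the library of their own number, and 2OHE2 did not. As each library is also a different compound, these correlations cannot show whether the numbers pair the libraries. With the replicate number as a block 0 members passed, 11 were lower and 2 higher at an unadjusted p under 0.05, and 165 genes were called. With 1 library a compound and members at a median of 755 reads, differences of the size seen here lie within the intervals.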
